A study of Mus musculus with 30 samples.

Results

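Untreated IDG-SW3 cells at day 21 of differentiation were compared with the same cells at day 14, 3 libraries a day. The 6 libraries were chosen by their labelled day and treatment, from 18 libraries of untreated cells on 6 days and 30 libraries in the whole series. IDG-SW3 is a mouse bone cell line that is conditionally immortalised, and all its libraries come from that single line. The cells were expanded with interferon-gamma at a lower, permissive temperature. They were then moved to body temperature in medium with ascorbic acid and beta-glycerophosphate and without interferon-gamma. Neither day received a compound or a vehicle, so the 2 groups differ by time in this medium. The study followed the passage of osteoblasts to osteocytes.

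Osteoblasts secrete a collagen-rich matrix and then mineralize it. Alkaline phosphatase degrades pyrophosphate, an inhibitor of mineral growth, and acidic proteins such as bone sialoprotein and osteocalcin bind mineral in the matrix. Osterix, the product of *Sp7*, is a transcription factor that osteoblasts need to form bone. Interferon-inducible genes are switched on by interferons through STAT and IRF factors. Of these, the IRF factors bind short repeats of GAAA in promoters.

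The promoters of 4 genes of the groups that led the comparison are shown, osteocalcin (*Bglap*) and bone sialoprotein (*Ibsp*) for the rise and *Isg15* and *Tgtp2* for the fall. These promoters were picked as examples and do not stand for the other members of those groups. Each is the 150 bases before the RefSeq start, from GRCm38.p6, which is not the build of the deposited values. They lie at chr3:88384467-88384616 on the minus strand, chr5:104299137-104299286 on the plus strand, chr4:156200819-156200968 on the minus strand and chr11:49064213-49064362 on the minus strand. Capitals mark ACCACA (a RUNX motif) and TATAAA in *Bglap*, TATAAA read on the other strand in *Ibsp*, and GAAA repeated after any 2 bases, the core of an interferon-stimulated response element, in *Isg15* and *Tgtp2*. Both strands were searched.
Bglap: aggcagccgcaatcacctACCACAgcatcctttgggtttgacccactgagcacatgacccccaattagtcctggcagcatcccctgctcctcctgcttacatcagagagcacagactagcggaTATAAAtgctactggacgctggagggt
Ibsp: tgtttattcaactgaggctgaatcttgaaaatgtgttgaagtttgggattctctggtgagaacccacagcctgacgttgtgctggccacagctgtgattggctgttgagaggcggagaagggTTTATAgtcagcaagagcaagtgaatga
Isg15: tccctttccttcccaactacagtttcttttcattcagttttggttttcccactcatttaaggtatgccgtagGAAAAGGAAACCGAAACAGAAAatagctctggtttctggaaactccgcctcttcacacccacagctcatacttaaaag
Tgtp2: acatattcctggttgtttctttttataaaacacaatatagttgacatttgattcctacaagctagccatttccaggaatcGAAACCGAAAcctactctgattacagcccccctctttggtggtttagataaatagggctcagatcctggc
In *Isg15* the capitals are 3 overlapping matches, which begin 78, 72 and 66 bases before the start, and in *Tgtp2* 1 match begins 70 bases before it. In *Bglap* ACCACA begins 132 and TATAAA 27 bases before the start. Of 27025 genes in the promoter table, 3.5% hold this GAAA pair within 250 bases before the start, 15.9% hold ACCACA and 14.3% hold TATAAA. For the 6432 tested genes with a promoter there, the shares were 3.3%, 12.0% and 7.8%. Among the interferon-inducible genes that fell and had a promoter there, only *Isg15*, *Stat2* and *Tgtp2* held the GAAA pair. A match is a run of letters and does not show that a factor binds there. The share of motifs among the genes that changed was not read, because fewer than 80% of them had a promoter in the table (90 of 142 and 41 of 63).

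Expression was listed per gene as RPKM, which scales reads by gene length and by library size. Rows taken as ribosomal RNA held 82.9%, 73.6% and 74.1% of the summed RPKM in the day 14 libraries and 79.9%, 80.0% and 79.3% in those of day 21. A share of summed RPKM is not a share of reads. Of 25520 gene symbols, 7816, 8768 and 8777 reached 1 RPKM at day 14 and 7949, 7651 and 7811 at day 21. Within the run of replicates 2 and 3 day 21 thus had a larger share of summed RPKM in those rows and fewer genes at 1 RPKM. Day 14 replicate 1 stood apart from its group in both. Their part in the changes was not tested. The steps between low values put the depth at an estimated 14000000 to 28600000 reads, at which 1 read on a gene of 1 kb is worth 0.0350 to 0.0714 RPKM. Replicates 2 and 3 of both days came from the same sequencing run and correlated at r = 0.981 on each day, and replicate 1 of both days, from another run, correlated with them at 0.957 to 0.965 (across genes, which are not replicates). The labels call the replicates biological without saying what was repeated. The p-values measure the spread between libraries of a day, pooled over all 18 untreated libraries.

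The labels give the cell type as osteocytic, and the defining osteocyte genes were at or near 0 on both days. *Sost* (sclerostin) and *Fgf23* were listed at 0 in all 6 libraries, and none of the 6 osteocyte markers reached 1 RPKM. *Dmp1*, a mineral-binding protein of osteocytes, stood at 0.046, 0 and 0 RPKM at day 14 and 0.118, 0.189 and 0.238 RPKM at day 21. The days did not overlap, but these levels were under the filter, so the rise was not tested. Of 6 osteoblast markers 5 reached 1 RPKM in at least 1 of the 6 libraries, *Ibsp* only at day 21. *Runx2*, the exception, was listed at 0.224 to 0.387 RPKM. The cells of both days thus held osteoblast markers, and osteocyte markers were not detectable above 1 RPKM. Markers of other cells were low. Summed levels were at most 0.165 RPKM for 5 endothelial markers, 0.507 RPKM for 5 adipocyte markers and 0.306 RPKM for 5 skeletal muscle markers. Chondrocyte markers summed to 1.04 to 1.51 RPKM at day 14 and 1.36 to 1.40 RPKM at day 21. Macrophage and osteoclast markers summed to 49.5 to 74.2 RPKM and 73.2 to 79.2 RPKM. Nearly all of that was *Ctsk* (cathepsin K), and the other markers summed to 1.27 to 1.82 RPKM. Of the 8 in the files, 2 reached 1 RPKM in at least 1 library, *Ctsk* among them, while *Emr1* and *Tyrobp* were at 0 in all 6 libraries.

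Changes were tested with limma on log2(RPKM + 0.5), each library centred on its median, over 9933 genes. The spread behind each SE and p-value was pooled over the 18 untreated libraries of the 6 days. At day 21, 142 genes were higher (1.43%) and 63 were lower (0.634%) at an adjusted p below 0.05, 205 in all (2.06%). Rises reached 3.33 and falls −1.70 on this log2 scale, which understates the change of genes with low values. Of the called genes 54 rose by more than 1 and 23 fell by more than 1. All 205 had centred values that did not overlap between the days, though 10 of the 142 overlapped as listed. Over all genes tested, day 21 lay wholly above day 14 in 990 (9.97%) and wholly below in 785 (7.9%). As listed, without centring, the median gene was 0.19 lower at day 21, and 27 higher and 36 lower genes passed. Quantile normalization gave 129 and 94. A fit of days 14 and 21 alone gave 25 and 10, and it kept 33 of the 205 calls. A block for the replicate number gave 383 and 198, and within the run shared by replicates 2 and 3 they were 86 and 40. Leaving out replicate 1, 2 or 3 of day 14 gave 68 and 28, 76 and 28, and 58 and 29. Leaving out replicate 2 or 3 of day 21 gave 46 and 14, and 73 and 40.

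**Figure D1:**
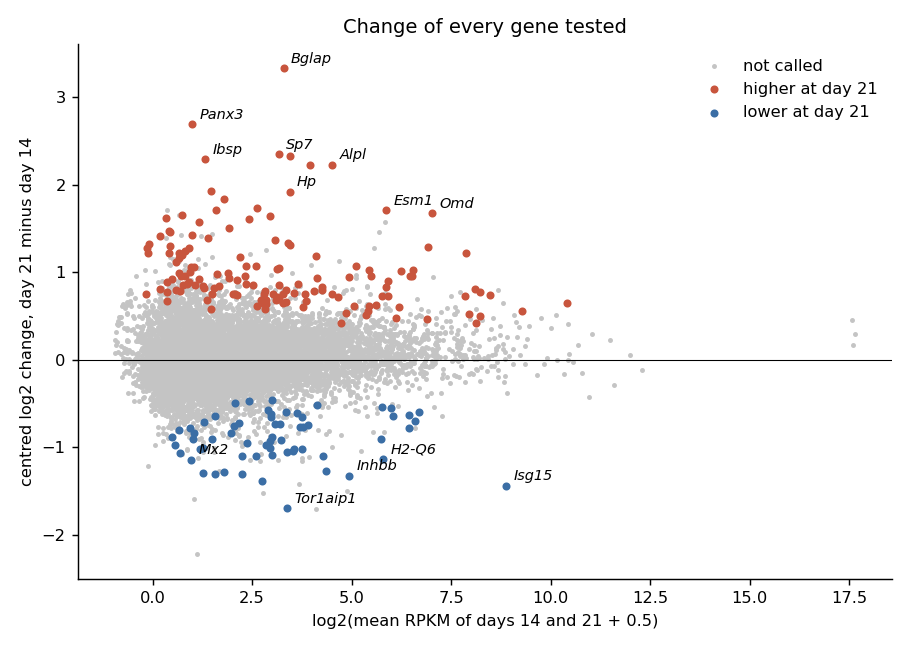
Centred log2 change from day 14 to day 21 (vertical axis) against the log2 mean RPKM of the 2 days (horizontal axis) for the 9933 genes tested. The 142 genes that rose reach further from 0 than the 63 that fell, with *Bglap* at 3.33 and *Tor1aip1* at −1.70.

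The mineralizing genes of osteoblasts led the rise. *Bglap*, which codes for osteocalcin, was listed at 1.09, 1.49 and 1.52 RPKM at day 14 and 8.64, 24.5 and 18.4 RPKM at day 21. Every day 21 library was above every day 14 library, and replicate 1 was the lowest of its day. The log2 change was 3.33 ± 0.33 (SE, n = 3 and 3, limma adjusted p = 3.16e-05). *Bglap2*, a near-identical neighbour of *Bglap*, went from 3.76, 5.97 and 6.46 RPKM to 14.2, 36.2 and 23.8 RPKM (2.23 ± 0.30, limma adjusted p = 0.000708). Reads may be split between both genes in a way the files do not show, so their separate levels are uncertain.

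*Alpl*, the gene of tissue-nonspecific alkaline phosphatase, had values of 8.50, 8.25 and 8.72 RPKM at day 14 and 35.5, 39.4 and 33.9 RPKM at day 21. The libraries of each day lay close together and far from those of the other day. The change was 2.23 ± 0.20 (limma adjusted p = 2.1e-05). *Ibsp*, the gene of bone sialoprotein, rose from 0.359, 0.551 and 0.281 RPKM to 1.59, 5.05 and 4.23 RPKM (2.29 ± 0.34, limma adjusted p = 0.0018). Replicate 1 was again the lowest library of day 21. With only the 6 libraries of both days in the fit, which leaves 4 degrees of freedom, the call of *Ibsp* was lost. It passed the filter on low values only through day 21 and later days.

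*Omd* codes for osteomodulin, a leucine-rich proteoglycan of bone matrix. It was listed at 48.0, 91.9 and 69.8 RPKM at day 14 and 164, 198 and 207 RPKM at day 21. All day 21 values were above all day 14 values, and the change was 1.67 ± 0.15 (limma adjusted p = 2.1e-05). *Sparc*, the gene of osteonectin, a collagen-binding protein, rose less, from 166, 189 and 208 RPKM to 290, 274 and 252 RPKM (0.73 ± 0.15, limma adjusted p = 0.0179). Its call was lost when replicate 2 or 3 of day 14, or replicate 1 or 2 of day 21, was left out, with changes of 0.54 to 0.79 over all settings.

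These 6 genes were the ones called among 16 tested mineralizing and osteoblast products, and none of the 16 fell. Over all genes tested 1.43% rose and 0.634% fell. The median change of the 16 was 0.57, against 0.01 for all genes tested. Of the 16, 7 had day 21 wholly above day 14, against 9.97% of all genes tested. The list holds 21 genes, and those at low levels passed the filter through later days. *Spp1*, the gene of osteopontin, had 13.8, 22.8 and 27.7 RPKM at day 14 and 14.9, 11.1 and 19.1 RPKM at day 21 (−0.28 ± 0.23, limma adjusted p = 0.707). The days overlapped for this gene. *Phospho1* (0.38 ± 0.30), which releases phosphate inside matrix vesicles, and *Ifitm5* (1.25 ± 0.38), a membrane protein of osteoblasts, did not pass, at limma adjusted p = 0.688 and 0.117. Without centring 5 of the 16 rose, and with the replicate block 7 rose and 1 fell. Without the filter 5 of 20 members rose, and the median was 0.37.

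*Sp7* was the only one of 10 tested osteoblast transcription factors that passed, where 2.06% of all genes tested did. It was listed at 2.80, 2.42 and 3.23 RPKM at day 14 and 13.0, 17.3 and 12.5 RPKM at day 21. The lowest day 21 library was well above the highest of day 14, and the change was 2.35 ± 0.22 (limma adjusted p = 2.77e-05). *Runx2*, which acts upstream of *Sp7*, was under the filter. *Dlx5*, a homeobox factor of osteoblasts, spread from 0.122 to 1.59 RPKM at day 14 and from 0.972 to 1.11 RPKM at day 21 and did not pass (0.76 ± 0.47, limma adjusted p = 0.561). The median change of the 10 factors was 0.11.

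**Figure D2:**
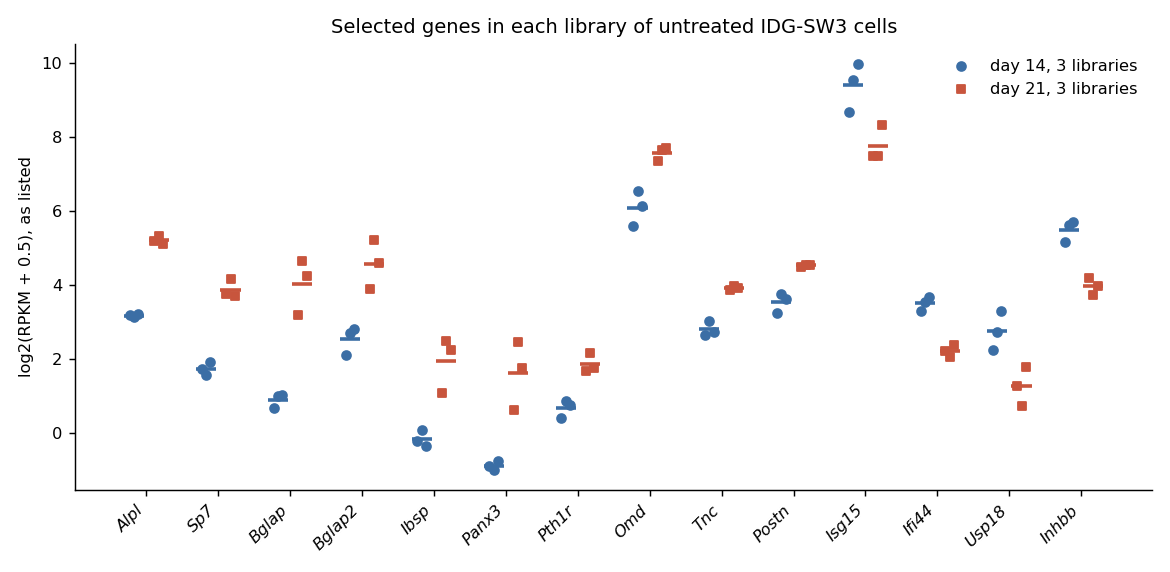
log2(RPKM + 0.5) as listed (vertical axis) of 14 genes in the 3 libraries of day 14 (circles) and the 3 of day 21 (squares), with horizontal lines at the means. The days do not overlap for any of the 14. Among the squares, replicate 1 (the leftmost) is the lowest for every gene that rose except *Alpl* and *Sp7*, and for *Isg15* among those that fell.

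Of 10 tested receptors and channels of osteoblasts 2 rose, against 1.43% of all genes tested. *Pth1r*, the receptor for parathyroid hormone, went from 0.807, 1.31 and 1.18 RPKM to 2.68, 3.97 and 2.87 RPKM without overlap (1.39 ± 0.18, limma adjusted p = 0.000511). *Panx3* codes for pannexin 3, a channel protein of osteoblasts and chondrocytes. It was listed at 0.03, 0 and 0.093 RPKM at day 14, a few reads at most, and at 1.02, 4.97 and 2.88 RPKM at day 21. The change was 2.69 ± 0.37 (limma adjusted p = 0.000792), and it depends on the pseudocount, with 4.46 at 0.1 RPKM and 1.96 at 1 RPKM.

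Several matrix proteins that bind or surround collagen fibrils rose. Of 26 small leucine-rich and matricellular proteins tested 7 rose, against 1.43% of all genes tested, and none fell. The median change of the 26 was 0.52, and 12 of them had day 21 wholly above day 14, against 9.97% of all genes. *Tnc*, the gene of the matricellular protein tenascin C, went from 5.71, 7.65 and 6.09 RPKM to 13.9, 15.1 and 14.7 RPKM (1.32 ± 0.13, limma adjusted p = 3.16e-05). *Postn*, the gene of periostin, which binds collagen, went from 8.96, 12.9 and 11.7 RPKM to 22.0, 22.7 and 22.8 RPKM (1.19 ± 0.11, limma adjusted p = 2.1e-05). Neither gene overlapped between the days. The other members that rose, besides *Omd*, were the fibril-binding proteoglycans *Fmod* (1.01 ± 0.18), *Lum* (0.65 ± 0.12), *Aspn* (0.80 ± 0.16) and *Epyc* (1.24 ± 0.27). Some members with high levels did not pass. *Bgn* (biglycan) changed by −0.02 ± 0.16 and *Vcan* (versican) by −0.60 ± 0.16, at limma adjusted p = 0.982 and 0.0708. With the replicate block 12 of the 26 rose and 1 fell, and without centring 2 rose. Without day 14 replicate 3 or day 21 replicate 2, 4 rose.

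Of 23 collagens tested 3 rose (1.43% of all genes tested did) and none fell, with a median change of 0.36. They were *Col14a1* (0.82 ± 0.17), a collagen on the surface of fibrils, *Col8a1* (0.52 ± 0.12) and *Col6a1* (0.42 ± 0.10), with limma adjusted p = 0.0162, 0.027 and 0.0468. As listed, *Col6a1* had 191, 298 and 296 RPKM at day 14 and 312, 296 and 293 RPKM at day 21, which overlap, and only the centred values are apart. Its call was lost whichever of the 6 libraries was left out. Without centring no collagen was called, and none was called without day 14 replicate 3, day 21 replicate 2 or day 21 replicate 3. With day 14 replicate 1 or 2 left out 1 rose, and with day 21 replicate 1 left out 2 rose and 1 fell. With the replicate block 7 rose and 1 fell.

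The genes of type I collagen, the main protein of bone matrix, did not pass. *Col1a1* had 90.3, 55.2 and 65.3 RPKM at day 14 and 92.7, 78.9 and 74.9 RPKM at day 21 (0.45 ± 0.27, limma adjusted p = 0.558). *Col1a2* had 43.7, 56.1 and 49.4 RPKM and 52.7, 37.0 and 41.6 RPKM (0.01 ± 0.14, limma adjusted p = 0.995), and the sign of its change turned under other settings. The days overlapped for both genes. Of 19 collagen processing enzymes 1 rose, where 1.43% of all genes tested did. It was *Pcolce*, which speeds the removal of the procollagen C-terminus, from 36.8, 46.6 and 48.2 RPKM to 67.0, 62.0 and 60.8 RPKM (0.73 ± 0.12, limma adjusted p = 0.00299). With the replicate block 6 of the 19 rose.

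Of 21 matrix proteases and inhibitors 3 rose, where 1.43% of all genes tested did. These were *Mmp9* (1.19 ± 0.28), a gelatinase, *Mmp23* (0.79 ± 0.19) and the serine protease *Htra3* (0.64 ± 0.15). Their limma adjusted p-values were 0.0384, 0.0448 and 0.0356. None of the 3 passed without centring, and neither *Mmp9* nor *Mmp23* passed with any 1 of the 6 libraries left out. *Mmp9* is also a gene of osteoclasts and macrophages, as is *Ctsk*, which rose from 48.2, 66.3 and 72.9 RPKM to 77.7, 74.9 and 71.6 RPKM (0.47 ± 0.12, limma adjusted p = 0.0488) with overlap in the listed values. The other 7 of those markers in the files summed to 1.27 to 1.82 RPKM over both days, with *Emr1* and *Tyrobp* at 0. In the secretory pathway, *Hspa5* (BiP, the main chaperone of the endoplasmic reticulum) was the only one of 23 genes that passed (0.47 ± 0.11, limma adjusted p = 0.0418). Its call was lost whichever of the 6 libraries was left out, and with the replicate block 3 of the 23 rose. *Pycr1*, which makes proline, was the only one of 20 amino acid supply genes that passed (0.86 ± 0.18, limma adjusted p = 0.018). Over all genes tested 2.06% passed.

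**Figure D3:**
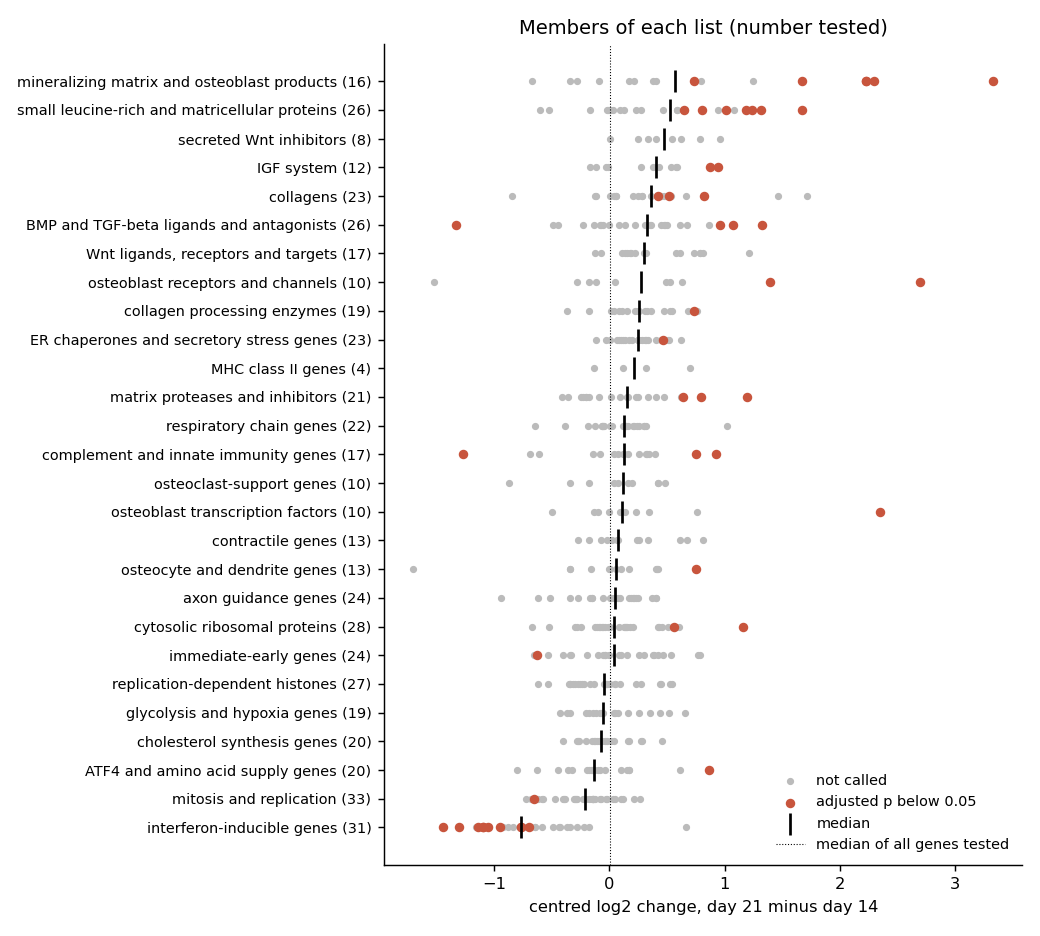
Centred log2 change from day 14 to day 21 (horizontal axis) of the tested members of each list with at least 4 of them (number in brackets), with a vertical mark at the list's median and a dotted line at the median of all genes, 0.01. The list of mineralizing products has the highest median, 0.57, and the interferon-inducible list the lowest, −0.76. Without the filter on low values these medians were 0.37 and −0.67. The lists were written with earlier results of these data known.

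Among signalling genes, *Id1* and *Id3*, both targets of BMP signalling that block helix-loop-helix factors, rose. *Id3* went from 46.0, 75.8 and 82.8 RPKM to 103, 116 and 119 RPKM (0.96 ± 0.16, limma adjusted p = 0.00331), and *Id1* from 14.6, 26.9 and 32.2 RPKM to 35.2, 51.3 and 44.6 RPKM (1.07 ± 0.21, limma adjusted p = 0.0147). Both were lowest in replicate 1 on each day. *Gdf10*, a ligand of the same family, was listed at 0.024, 0.188 and 0.076 RPKM at day 14 and 0.652, 0.948 and 0.792 RPKM at day 21 (1.32 ± 0.17, limma adjusted p = 0.000511), under 1 RPKM on both days.

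*Inhbb* codes for the beta B subunit of activin and inhibin. This gene was the 1 member of the 26 BMP and TGF-beta genes that fell, where 0.634% of all genes tested did. It had 35.0, 48.1 and 51.5 RPKM at day 14 and 17.6, 12.8 and 15.2 RPKM at day 21. The highest day 21 library was far below the lowest of day 14. The change was −1.33 ± 0.21 (limma adjusted p = 0.00272). Its call held in all 17 other settings.

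In the IGF system 2 of 12 genes rose (1.43% of all genes tested did), the growth factor *Igf2* (0.94 ± 0.15, limma adjusted p = 0.00306) and its binding protein *Igfbp2* (0.87 ± 0.20, limma adjusted p = 0.0364). *Igf2* had 10.9, 13.4 and 13.3 RPKM at day 14 and 23.6, 18.7 and 21.6 RPKM at day 21, without overlap. No gene among 8 secreted Wnt inhibitors or 17 Wnt ligands, receptors and targets passed. The medians of these lists were 0.47 and 0.30, and with the replicate block 2 and 4 rose. *Sfrp4*, a secreted Wnt regulator, had 11.2, 14.4 and 14.3 RPKM and then 28.1, 16.3 and 17.7 RPKM (0.78 ± 0.22, limma adjusted p = 0.081, or 0.00702 with the replicate block).

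Of genes that support osteoclasts none of 10 passed. *Tnfsf11*, which codes for RANKL, the factor that osteoclasts need, had 8.71, 11.0 and 9.84 RPKM at day 14 and 6.17, 3.30 and 4.22 RPKM at day 21. The days did not overlap, and the change was −0.87 ± 0.22 (limma adjusted p = 0.0598, or 0.00774 with the replicate block). *Tnfrsf11b*, the gene of its decoy receptor osteoprotegerin, changed by 0.42 ± 0.21 (limma adjusted p = 0.409). *Dio2*, a deiodinase that activates thyroid hormone, changed by 0.52 ± 0.32 (limma adjusted p = 0.552).

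Several of the largest rises were in genes outside the bone lists. *Hp* codes for haptoglobin, which binds free haemoglobin. It went from 4.52, 4.42 and 4.72 RPKM to 18.0, 14.1 and 16.7 RPKM (1.92 ± 0.23, limma adjusted p = 0.00029). *Esm1*, which codes for the secreted proteoglycan endocan, went from 18.8, 32.4 and 40.4 RPKM to 68.0, 95.5 and 91.2 RPKM (1.71 ± 0.19, limma adjusted p = 9.66e-05). Neither overlapped between the days, and for *Hp* replicate 1 was the highest of day 21. *Gprin3* (1.64 ± 0.15), the matricellular growth factor *Ctgf* (1.37 ± 0.18) and the pentraxin *Ptx3* (1.29 ± 0.16), a soluble pattern receptor, also rose. *S100b* (1.73 ± 0.38), *Ckb* (1.61 ± 0.32), a creatine kinase, *Pcp4l1* (1.33 ± 0.32) and *LOC100504620* (2.33 ± 0.45) passed in 8 to 13 of 17 other settings, while *Hp*, *Esm1*, *Gprin3* and *Ctgf* passed in all 17.

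The fall was led by interferon-inducible genes. Of 31 tested 10 fell (0.634% of all genes tested did) and none rose, with a median change of −0.76. In 24 of the 31 day 21 lay wholly below day 14 (7.9% of all genes did). *Isg15* codes for a ubiquitin-like protein that interferon induces. It was listed at 411, 742 and 999 RPKM at day 14 and 177, 179 and 319 RPKM at day 21. Its days did not overlap although both spread widely, and the change was −1.44 ± 0.32 (limma adjusted p = 0.027). *Usp18*, the protease that removes ISG15 from proteins, went from 4.23, 6.11 and 9.34 RPKM to 1.89, 1.16 and 2.93 RPKM (−1.30 ± 0.30, limma adjusted p = 0.0288). *Ifi44* went from 9.23, 11.2 and 12.2 RPKM to 4.09, 3.66 and 4.67 RPKM (−1.09 ± 0.20, limma adjusted p = 0.0103).

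The other 7 that fell include 2 subunits of the interferon-activated factor ISGF3, *Stat2* (−0.95 ± 0.23) and *Irf9* (−0.77 ± 0.17). They also include the interferon-induced GTPases *Mx2* (−1.14 ± 0.25), *Tgtp2* (−1.05 ± 0.21), *Gbp4* (−0.76 ± 0.17) and *Ifi47* (−0.70 ± 0.16), and *Oasl2* (−1.10 ± 0.23), a relative of the oligoadenylate synthetases. *Tgtp2* has a near-identical copy, *Tgtp1* (−0.88 ± 0.23, limma adjusted p = 0.0598), and reads may be split between them. The chemokine gene *Cxcl9* was the 1 member with a positive change, from 0.275, 1.13 and 0.718 RPKM to 0.466, 1.50 and 1.62 RPKM, which overlap (0.67 ± 0.46, limma adjusted p = 0.618).

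The count of interferon-inducible genes that fell moved with the library left out, while the median of the list stayed below 0. The count of lower genes over all genes tested dropped in the same fits, to 14 to 54. Without day 21 replicate 2 none passed (median −0.66), without day 14 replicate 3 1 passed (−0.75), without day 14 replicate 2 2 passed (−0.75), without day 21 replicate 1 3 passed (−0.74) and without day 14 replicate 1 5 passed (−0.81). With day 21 replicate 3 left out, 10 still passed (−0.85). Within the run shared by replicates 2 and 3, 2 passed (−0.79), and with the replicate block 19 passed (−0.76). Without centring 7 passed, and no setting had a rise. Day 14 replicate 1 held the lowest day 14 value of *Isg15*, *Usp18* and *Ifi44*.

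**Figure D4:**
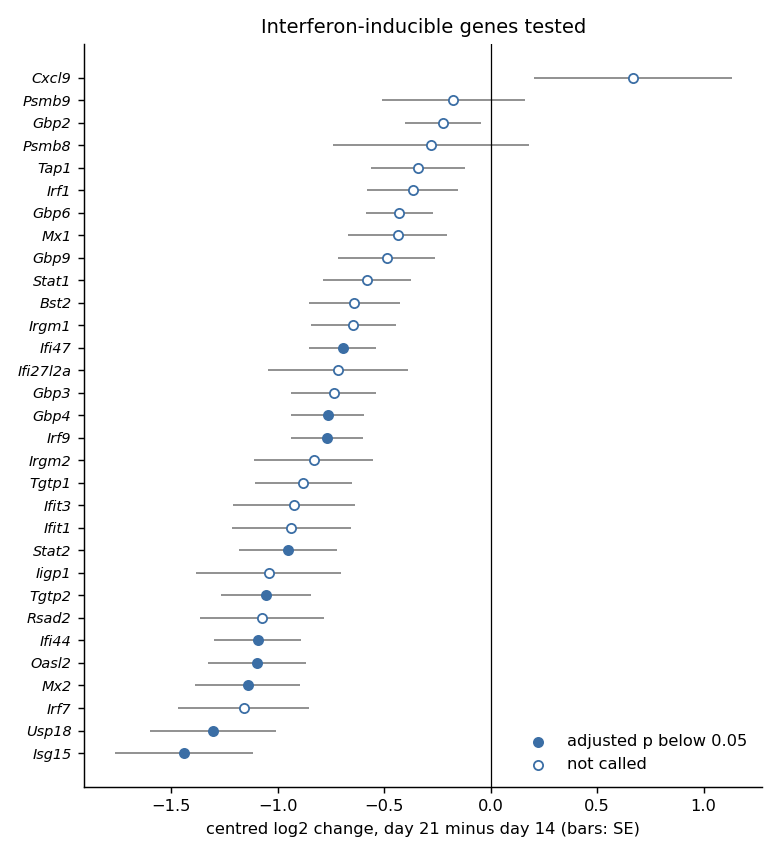
Centred log2 change from day 14 to day 21 (horizontal axis) with its SE for the 31 interferon-inducible genes tested. The 10 filled points passed an adjusted p of 0.05, 30 of 31 genes lie below 0, and *Isg15* is lowest at −1.44.

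Other genes fell beside them. *H2-Q6*, a class I gene of the histocompatibility complex with close copies among which reads may be split, went from 53.2, 87.2 and 98.8 RPKM to 29.7, 29.0 and 32.1 RPKM (−1.14 ± 0.15, limma adjusted p = 0.000692). *Il1rl1*, the receptor of interleukin 33, went from 28.4, 28.7 and 31.0 RPKM to 13.5, 8.00 and 10.0 RPKM (−1.27 ± 0.30, limma adjusted p = 0.0343). Its ligand *Il33* moved the other way, from 1.51, 2.25 and 1.60 RPKM to 2.86, 2.76 and 2.86 RPKM (0.75 ± 0.18, limma adjusted p = 0.0448), and neither overlapped between the days. *Il1rl1* passed in 8 of 17 other settings and *Il33* in 4 of 16.

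*Tor1aip1*, a protein of the inner nuclear membrane, had the largest fall, from 14.9, 16.7 and 15.8 RPKM to 4.88, 3.38 and 3.52 RPKM (−1.70 ± 0.28, limma adjusted p = 0.00355). It is listed on several rows, and with the rows summed the change was 0.00, so the fall belongs to 1 row and not to the gene as a whole. The adhesion gene *Pcdh20* (−1.10 ± 0.22), the potassium channel *Kcnj15* (−1.04 ± 0.24), the metal-binding *Mt1* (−1.10 ± 0.26), *LOC100504054* (−1.39 ± 0.28) and *LOC100504230* (−1.02 ± 0.25) were also among the largest falls. *Jun*, a subunit of AP-1, was the 1 of 24 immediate-early genes that passed (−0.63 ± 0.16, limma adjusted p = 0.0488), and its call was lost whichever of the 6 libraries was left out. Over all genes tested 2.06% passed.

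At this step 1 of 33 mitosis and replication genes fell, where 0.634% of all genes tested did. It was the replicative helicase subunit *Mcm5*, from 6.87, 11.1 and 11.0 RPKM to 4.33, 5.31 and 5.49 RPKM (−0.65 ± 0.13, limma adjusted p = 0.0163). The median of the list was −0.21, and 10 of the 33 had day 21 wholly below day 14 (7.9% of all genes did) against 1 wholly above. With the replicate block 5 fell. *Mki67*, a marker of dividing cells, had 8.58, 9.94 and 8.96 RPKM and then 5.21, 4.37 and 4.24 RPKM, without overlap (−0.73 ± 0.19, limma adjusted p = 0.069, or 0.00388 with the replicate block). None of 27 replication-dependent histones, 19 glycolysis and hypoxia genes, 22 respiratory chain genes, 20 cholesterol synthesis genes, 13 contractile genes, 24 axon guidance genes or 4 class II histocompatibility genes passed. With the replicate block 1 histone, 1 contractile and 1 class II gene rose and 2 axon guidance genes fell. Of 28 ribosomal protein genes 2 rose (1.43% of all genes tested did), *Rps3* (0.56 ± 0.12) and *Rpl27* (1.16 ± 0.28), and both have processed copies in the genome that may share reads. Of 13 osteocyte and dendrite genes 1 rose (1.43% of all genes tested did), *Tnfrsf19*, from 0.154, 0.301 and 0.219 RPKM to 0.604, 0.485 and 0.597 RPKM (0.75 ± 0.17, limma adjusted p = 0.0262). Its call was lost whichever of the 6 libraries was left out. In bulk RNA of this kind, fewer cells of a type and less RNA per cell cannot be told apart.

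Day 7 and day 28 place the step in the course. Between day 7 and day 14, 535 genes passed (5.39%), and between day 21 and day 28, 274 passed (2.76%). The comparisons of neighbouring steps share a day, so the values are set side by side. Several genes that rose at day 21 had been higher at day 7 than at day 14. *Alpl* had a mean of 15.7 RPKM at day 7, 8.49 at day 14 and 36.3 at day 21, *Tnc* 11.2, 6.48 and 14.6 RPKM, and *Ctgf* 9.87, 4.81 and 11.0 RPKM (n = 3 each). The contrast of day 21 with day 7 was added after the data were seen. In it *Bglap* (2.34 ± 0.33), *Sp7* (2.30 ± 0.22), *Alpl* (1.52 ± 0.20) and *Ibsp* (2.27 ± 0.34) passed, while *Ctgf* (0.47), *Pcolce* (0.27) and *Col6a1* (0.05) did not, at limma adjusted p = 0.0934, 0.152 and 0.853.

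The step to day 21 differed from the step to day 14 in 103 genes (1.04%), with 72 higher and 31 lower. For *Bglap* the difference of the steps was 4.32 ± 0.57 (limma adjusted p = 0.00106), with −0.99 to day 14 and 3.33 to day 21. *Alpl* (2.93), *Gprin3* (2.40), *Esm1* (2.41), *Panx3* (3.84) and *Postn* (1.44) passed the same way. *Inhbb* passed in the other direction (−2.43, limma adjusted p = 0.00308), with a rise of 1.11 to day 14 before its fall. The interferon-inducible genes had no member that passed, with a median of −0.54 to day 14 and −0.76 to day 21. For the mitosis list the medians were −1.02 and −0.21, 26 of 33 genes fell to day 14, and 3 passed the test of the difference. The count of 103 became 343 with the replicate block and 11 without centring. Leaving out replicate 2 or 3 of day 7 gave 64 each time. Leaving out replicate 1, 2 or 3 of day 14 gave 37, 26 and 66, and leaving out replicate 2 or 3 of day 21 gave 59 and 68.

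The step to day 28 did not differ from the step to day 21 in any gene by limma (0%), with 688 genes at an unadjusted p below 0.05 and a lowest adjusted p of 0.0539. The replicate block gave 59, and leaving out day 28 replicate 1 gave 39, day 14 replicate 2 gave 2 and day 21 replicate 3 gave 1. *Bglap* rose again to day 28, by 3.12 ± 0.33, as did *Ibsp* (3.52 ± 0.34), *Panx3* (3.91 ± 0.37) and *Sp7* (1.65 ± 0.22). *Hp* (0.08 ± 0.23), *Ptx3* (−0.13 ± 0.16) and *Igf2* (−0.13 ± 0.15) did not pass at that step. *Col1a1*, which did not pass to day 21, rose by 1.45 ± 0.27 to day 28 (limma adjusted p = 0.00645), and 9 of the 16 mineralizing products rose there.

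**Figure D5:**
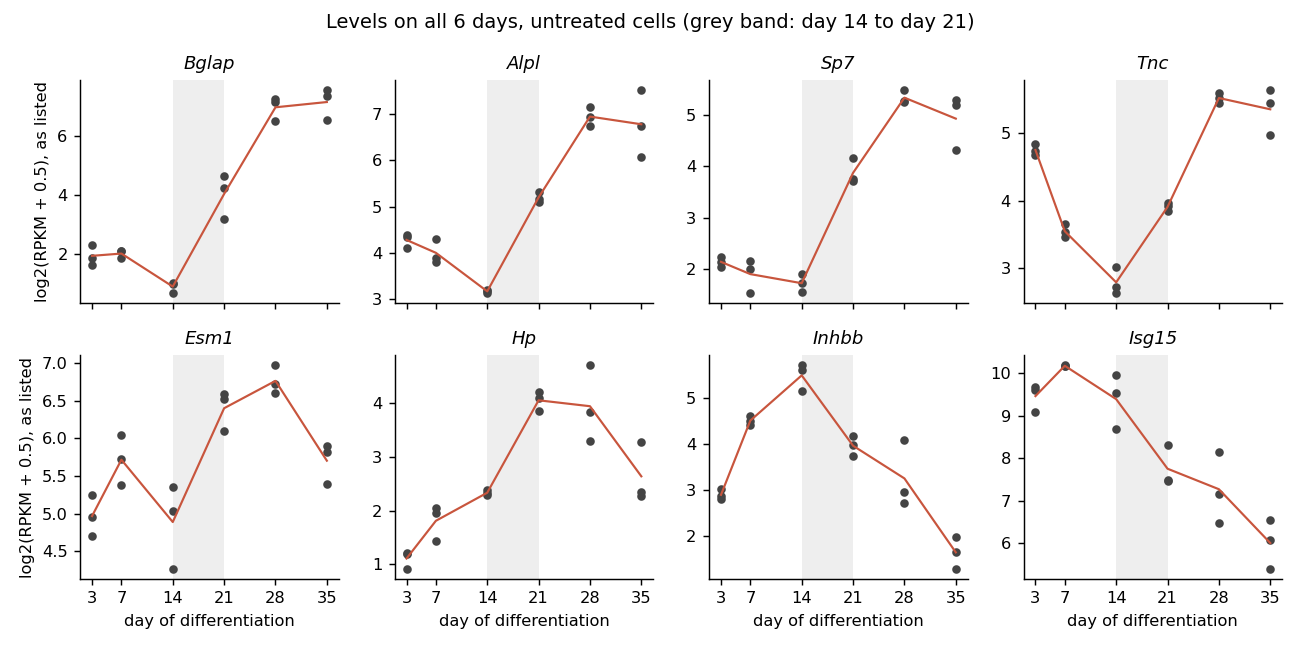
log2(RPKM + 0.5) as listed (vertical axis, scaled per panel) of 8 genes in each library (points) on 6 days of differentiation (horizontal axis), with a line through the means and a grey band from day 14 to day 21. The means of *Bglap*, *Alpl* and *Tnc* are lowest at day 14 and rise through day 28, *Inhbb* is highest at day 14, and *Isg15* is highest at day 7 and falls on each later day.

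The sizes of the changes in the 2 sequencing runs are given as a description, since genes called without overlap between the days have the same sign in both. Within the run of replicates 2 and 3 the changes were 3.80 for *Bglap*, 2.56 for *Sp7*, 2.40 for *Alpl*, 2.86 for *Ibsp* and 3.34 for *Panx3*, all with a limma adjusted p below 0.05. These libraries are also in the main fit, so passing here is not separate support. The fit within the run had 2 residual degrees of freedom and kept 78 of the 205 calls. In the pair of replicate 1 libraries, which allows no test, the changes of the same genes were 2.40, 1.91, 1.88, 1.16 and 1.39. Among bone genes that were not called, that pair gave −0.50 for *Dlx5*, −0.09 for *Col1a1* and −0.03 for *Spp1*. *Omd* differed little between the runs (1.69 and 1.63), and so did *Postn* (1.22 and 1.12). For *Isg15* the values were −1.49 (limma adjusted p = 0.055) and −1.34, and for *Inhbb* −1.45 and −1.10. The part of the run in these sizes was not tested.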

How the data were processed

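RNA depleted of ribosomal RNA was sequenced from IDG-SW3 cells. Per the submitters' processing notes the authors used TopHat, with no version stated, and the mm9 build. How reads were counted is not given in the sources used here. The deposited values for untreated cells were read as RPKM from the values themselves, since nothing in the files names the unit. The hormone experiment was not used here.

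Of 30901 rows per file, the row with the highest mean was kept for each of 25520 symbols. Values were taken as log2(RPKM + 0.5) and each library was centred on its median, since ribosomal RNA rows vary. Genes needed 1 RPKM in at least 3 of the 18 untreated libraries. limma (3.58.1, R 4.3.3) with trended moderation was fitted to all 18 libraries with the days as groups (12 residual degrees of freedom). Two-sided p-values were adjusted by Benjamini-Hochberg over all genes tested, and calls needed an adjusted p under 0.05. The steps were compared as contrasts of the same fit. The script was tested on simulated data.

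Replicate numbers come from the labels. Deviations of same-numbered libraries of days 14 and 21 correlated at 0.552, 0.158 and 0.276, all above 0.1, so blocked values are given beside the counts. The main fit had no block, and these correlations do not show that same-numbered libraries are pairs. Replicate 2 of day 14 correlated more with replicate 3 of day 21 (0.19), and replicate 3 of day 14 with replicate 2 of day 21 (0.349). Replicates 2 and 3 share a run, so in blocked values the number and the run cannot be told apart.

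The genes, lists and tests were chosen with earlier results of these data known, and the contrast of day 21 with day 7 was added after the data were seen. Named genes were the 15 largest rises and falls among called genes without overlap and with at least 5 RPKM on the higher day, at most 6 called members of each of 32 lists, and 22 genes named whatever their result; other members are named to fill out a list. Alternatives covered the scaling, pseudocount, filter, libraries in the fit, replicate block, sequencing run (read from file names), row choice and each library left out. Depth was estimated from the steps of low values. Some called genes are not reported here.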

Additional observations from a re-analysis of the deposited data

How the results depend on the processing

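Summing the rows of a symbol turned the sign of 1 of 205 called genes (Tor1aip1, 0.001). With a library left out the sign could not turn, since no called gene overlapped between the days, and the fits with a block, with the run or with days 14 and 21 alone keep the same estimate. The number of calls moved. For genes higher and lower at day 21 (142 and 63) it was 27 and 36 without centring, 77 and 31 without a filter, 25 and 10 with only days 14 and 21 in the fit, 414 and 214 with the sequencing run in the model and 86 and 40 within 1 run. A filter of 5 RPKM gave 95 lower genes. Leaving out 1 library gave 46 to 108 higher and 14 to 54 lower genes. The counts with the replicate block were 383 and 198, where all 205 genes were kept. For the difference from the step before (103) the values were 11 without centring, 44 without a filter, 343 with the replicate block, 371 with the run, and 26 to 114 with 1 library left out. For the difference from the step after (0) they were 9 with quantile normalization, 2 with a pseudocount of 0.1, 10 with a filter of 5 RPKM, 59 with the replicate block, 77 with the run, and 0 to 39 with 1 library left out. The cause was not tested. Col1a2 (0.01) was −0.19 without centring, −0.093 with quantile normalization, −0.016 with a pseudocount of 1, −0.017 without a filter, −0.043 with a filter of 5 RPKM, −0.061 within 1 run, −0.003 with rows summed, and −0.113 to 0.098 with 1 library left out. Of 63 called named genes, 14 passed in every setting and 23 passed with each library left out. Over 1215 gene and setting pairs, 855 kept their side of the threshold, 338 lost the call, 12 gained one and 10 changed sign. Depth limits genes under about 1 RPKM, Dmp1, Runx2 and Panx3 at day 14 among them.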

Other observations

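Genes outside the lists were looked at after their values were seen. *Penk*, the gene of proenkephalin, an opioid peptide precursor, had 89.1, 201 and 186 RPKM at day 14 and 242, 333 and 347 RPKM at day 21, without overlap (1.22 ± 0.22, limma adjusted p = 0.00861). *Clec11a*, the gene of the bone growth factor osteolectin, rose from 33.2, 47.6 and 55.9 RPKM to 65.5, 81.4 and 72.6 RPKM (0.90 ± 0.13, limma adjusted p = 0.00126). The matrix genes *Matn4* (1.66 ± 0.20) and *Npnt* (1.17 ± 0.29) rose with them, as did *Hpgd* (1.03 ± 0.17), which inactivates prostaglandins, and *Cd200* (1.62 ± 0.27), a surface protein that dampens immune cells.

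Among falls outside the lists, *Nr2f2*, an orphan nuclear receptor, went from 3.31, 3.67 and 4.57 RPKM to 1.11, 1.00 and 0.972 RPKM (−1.30 ± 0.21, limma adjusted p = 0.00306). *Ugcg*, the first enzyme of glycosphingolipid synthesis, changed by −1.29 ± 0.17 (limma adjusted p = 0.000511), and the neurotrophin *Bdnf* by −0.61 ± 0.14 (limma adjusted p = 0.0293). *Zbp1* (−1.29 ± 0.26), *Ddx60* (−1.02 ± 0.21) and the class I gene *H2-K1* (−0.64 ± 0.12), which interferon is known to induce and the interferon list did not hold, also fell.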
